A study of Mus musculus with 24 samples.

Results

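The left ventricle of male mice after reverse remodeling was set directly against the left ventricle of male mice at the height of stress. These were 6 of the 24 libraries of the series, 3 in each group, and a gene was kept where 3 or more of them reached a TPM of 1, which left 12498 of the 24972 genes in the table. TPM is the length-corrected share of a gene's transcripts in its library, scaled to a sum of 1e+06. The stressed group, MHS (metabolo-hypertensive stress), was taken at day 28. The other group, MHS_RR, is titled as MHS followed by reverse remodeling (RR) and was taken at day 56, with a treatment tag of AngII + HFD, angiotensin II and a high-fat diet. The series also holds male controls of both days and the same 4 groups in females, all of strain C57Bl6/J with RNA from the free wall of the left ventricle. The dose, the age of the mice and the way the stress was ended are not given in the sources used here, and neither is whether a library came from 1 mouse or from a pool. P-values therefore measure the spread between libraries, which may be technical.

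The grouping follows each library's title, with which the group tag fits. In 12 libraries of both sexes other tags go against the title, since all MHS libraries are tagged as untreated at 56 days and all controls titled day 56 as AngII + HFD at 28 days. The deposited columns are named with the sample codes of the titles. No label beyond these codes and the group tag settles which is right, so every value rests on the titles. Because the 2 groups also differ in day, withdrawal and elapsed time cannot be told apart within the 6 libraries. Controls of day 56 were therefore set against controls of day 28, and the difference between these changes was tested.

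A ventricle under pressure overload makes fetal and stretch-responsive proteins of the sarcomere, and its fibroblasts lay down collagen and matricellular proteins that bind cells to the matrix. Its supply of energy shifts among fatty acids, glucose and amino acids, which are burned in mitochondria.

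Between 12187 and 12523 genes reached a TPM of 1 in the 6 libraries, and the 10 most abundant genes held 14.7% to 16.9% of the total. Sequencing depth is unknown. The ventricular light chain Myl2 held 24559.9 to 25624 TPM in MHS, whereas Adipoq of fat stayed at or below 1.49 TPM and Myh4 of skeletal muscle at or below 0.0128 TPM. MHS_RR replicate 1 stood apart in atrial genes. It held 57.3 TPM of Myl7 and 12.7 TPM of Sln, against at most 8.10 TPM and 0.772 TPM in the other 5, and the summed level of the 7 atrial markers was 172 TPM there against 36.6 to 58.1 TPM. None of the 5 atrial markers tested was called (adjusted p for Myl7 = 0.719). In bulk tissue, fewer cells of a type and less RNA per cell cannot be told apart. The first principal component of the 6 libraries held 50.9% of the variance and separated the groups. On it MHS replicates 1 to 3 lay at -10.4, -21.2 and -21.7 and MHS_RR replicates 1 to 3 at 11.2, 27.4 and 14.5.

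Far more genes fell than rose after withdrawal. With limma on log2(TPM + 1) and Benjamini-Hochberg adjustment over the 12498 genes, 2113 genes (16.9%) were lower in MHS_RR and 442 (3.54%) were higher at an adjusted p under 0.05, which is what called means below. Values with ± are log2 fold changes, MHS_RR minus MHS, with their standard error, unless named as TPM. At least 2-fold changes were found for 106 of the lower genes (0.848%) and 20 of the higher ones (0.16%). The TPM of all 3 MHS_RR libraries lay below all 3 MHS libraries in 3710 genes (29.7%) and above them in 1040 (8.32%). The excess of falls depended on the scale. The median log2 fold change of all genes was -0.11 in TPM, and after median-of-ratios scaling, quantile normalization, or correction for GC content and transcript length it was 0.0076, 0.0158 and 0.0135. Those scales gave 993 higher and 1064 lower, 874 and 962, and 1154 and 1068 genes. Under all 4 scales 775 genes were lower and 389 were higher, among them 103 of the 106 with at least a 2-fold fall and 19 of the 20 with such a rise. Small changes are therefore given below beside the other scales. List counts are to be read beside the 16.9% lower and 3.54% higher of all genes. Leaving out MHS replicate 2, MHS replicate 3 or MHS_RR replicate 2 left 1450, 1286 and 1101 called genes in place of 2555.

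**Figure D1:**
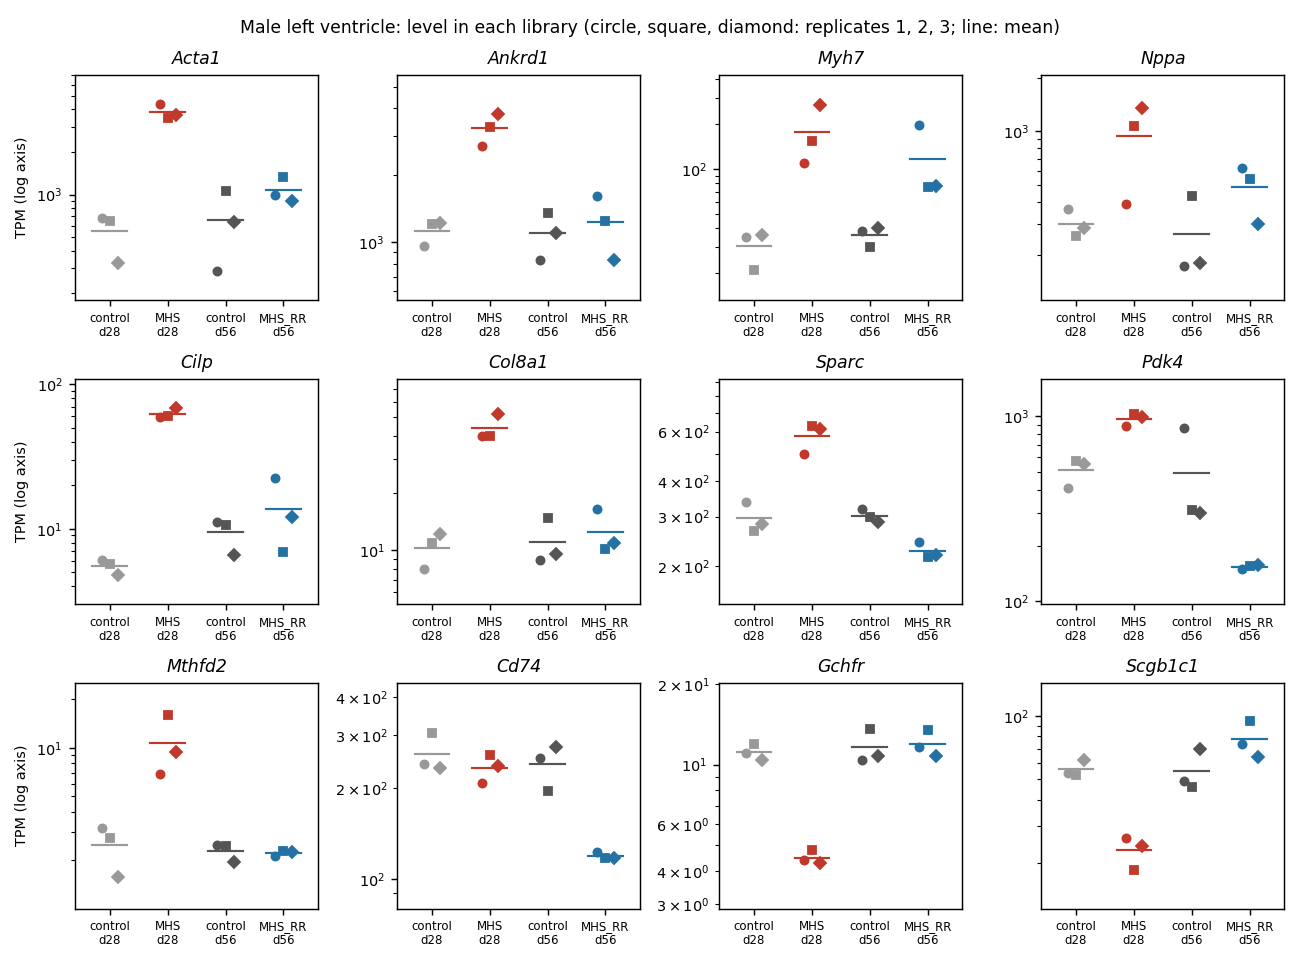
Level of 12 genes in the 12 male libraries in TPM on log axes, with circles, squares and diamonds for replicates 1, 2 and 3 and a line at the mean of each group. Acta1, Cilp, Sparc and Pdk4 fell from every MHS library to every MHS_RR library, Gchfr and Scgb1c1 rose, and Myh7 and Nppa overlapped between the groups.

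Genes of wall stress and the Z-disc, the anchor of the thin filaments, were mostly lower after withdrawal. Of the 24 tested members, 15 fell and 0 rose, with a median log2 fold change of -0.78 against -0.11 over all genes. The 3 other scales left 13, 16 and 13 of them lower. Acta1, the skeletal alpha-actin that the stressed ventricle expresses again, stood at 4406, 3489 and 3660.1 TPM in MHS replicates 1 to 3 and at 993, 1338 and 896 TPM in MHS_RR. The groups did not overlap, and the log2 fold change was -1.85 ± 0.40 (SE, adjusted p = 0.00322). Ankrd1, a stretch-responsive protein of the titin complex, held 2707, 3290.2 and 3754 TPM in MHS and 1619.7, 1244 and 828 TPM in MHS_RR. Its change of -1.44 (adjusted p = 0.000791) ended near the day 56 controls, which held 835, 1346 and 1101 TPM.

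The 4 smallest p-values of this list were those of Flnc, Synpo2l, Nrap and Bag3. Flnc, the actin cross-linker filamin C, went from 225, 228 and 251 TPM to 105, 87.2 and 109.7 TPM (log2 fold change -1.22 ± 0.12, adjusted p = 6.07e-06). The actin-bundling Synpo2l was at 156, 199.8 and 232 TPM and then at 82.3, 63.7 and 78.7 TPM, a change of -1.37 (adjusted p = 1.56e-05). Nrap, which takes part in the assembly of myofibrils, changed by -0.98 and the co-chaperone Bag3, which clears damaged filamin, by -0.61 (adjusted p = 4.68e-05 and 8.1e-05). All 4 were called under each alternative tried, and each was also called lower beyond control time.

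Of the well-known markers, 3 did not pass the test. The slow myosin heavy chain Myh7 was at 109, 154 and 269 TPM in MHS and at 197, 75.8 and 77 TPM in MHS_RR, so that its groups overlapped (log2 fold change -0.65 ± 0.51, adjusted p = 0.392). Replicate 1, the library with atrial transcripts, was the highest of its group, and without it Myh7 changed by -1.11 (adjusted p = 0.157). Nppa, the atrial natriuretic peptide, ranged from 389 to 1345 TPM in MHS and from 302 to 619 TPM in MHS_RR (-0.82 ± 0.49, adjusted p = 0.252). Without MHS replicate 1, the lowest of its group, Nppa changed by -1.36 (adjusted p = 0.0588), without MHS replicate 3 by -0.47 (adjusted p = 0.632), without MHS_RR replicate 1 by -1.03 (adjusted p = 0.212) and without MHS_RR replicate 3 by -0.51 (adjusted p = 0.546). Nppb, the B-type peptide, was at 963, 786 and 831 TPM and 678, 603 and 329.5 TPM, which did not overlap, yet its change of -0.74 ± 0.34 was not called (adjusted p = 0.134). All 3 MHS_RR levels of Myh7 lay above the day 56 controls, which held 38.4, 30.1 and 39.95 TPM.

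The start regions of 4 of these genes are shown because they hold the M-CAT motif, in Acta1 and Ankrd1, which fell, and in Nppb and Myh7, which did not pass the test. Windows of 300 bases, from 250 before to 50 after the gene start, were read from RefSeq on GRCm38.p6, another build than the mm9 of the deposited values. Capitals mark the M-CAT motif CATTCC, read on both strands (GGAATG), and in Acta1 also a CArG box, the binding motif of serum response factor. The windows are chr8:123894726-123895025 on the minus strand for Acta1, chr19:36119795-36120094 minus for Ankrd1, chr4:147985650-147985949 plus for Nppb, and chr14:54994577-54994876 minus for Myh7, the first of its 2 windows.
Acta1: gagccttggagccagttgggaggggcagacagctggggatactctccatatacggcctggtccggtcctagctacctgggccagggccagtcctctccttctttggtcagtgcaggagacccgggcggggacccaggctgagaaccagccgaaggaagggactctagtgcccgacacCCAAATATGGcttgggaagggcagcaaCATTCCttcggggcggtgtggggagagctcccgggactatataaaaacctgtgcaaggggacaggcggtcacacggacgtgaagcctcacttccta
Ankrd1: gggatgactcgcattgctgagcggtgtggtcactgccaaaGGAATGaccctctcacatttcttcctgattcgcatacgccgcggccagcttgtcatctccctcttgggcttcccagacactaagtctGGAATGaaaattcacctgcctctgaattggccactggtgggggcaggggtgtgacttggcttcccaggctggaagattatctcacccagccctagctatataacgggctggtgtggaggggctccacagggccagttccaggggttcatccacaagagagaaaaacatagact
Nppb: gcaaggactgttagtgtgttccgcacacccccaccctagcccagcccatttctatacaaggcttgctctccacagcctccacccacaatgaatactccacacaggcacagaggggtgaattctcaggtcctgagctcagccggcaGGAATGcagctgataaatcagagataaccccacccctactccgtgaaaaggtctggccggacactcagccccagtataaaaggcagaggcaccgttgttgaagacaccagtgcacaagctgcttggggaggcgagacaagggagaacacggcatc
Myh7: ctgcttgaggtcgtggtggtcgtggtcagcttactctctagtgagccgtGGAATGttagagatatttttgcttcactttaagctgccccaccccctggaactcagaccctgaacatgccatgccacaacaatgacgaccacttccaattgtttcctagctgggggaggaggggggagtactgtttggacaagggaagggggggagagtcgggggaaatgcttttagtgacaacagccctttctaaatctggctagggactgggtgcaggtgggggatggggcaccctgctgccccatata

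In these windows the M-CAT letters began at -46 in Acta1, at -210 and -123 in Ankrd1, at -105 in Nppb and at -201 in Myh7, counted from the gene start. The CArG box of Acta1 began at -73. M-CAT letters were present for 6 of the 21 wall stress genes that had a window, against 16.6% of the 27025 genes with one, and a CArG box for 4 of 21 against 1.81%. The CArG box was found in Fhl1, Acta1, Lmcd1 and Fhl2, of which Lmcd1 and Fhl2 were not called. The list was chosen with earlier results of these data known, so these shares are a description. Acta1 and Ankrd1 fell while Nppb and Myh7 were not called. All 4 were shown because they hold the M-CAT letters, so the letters cannot separate them.

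Collagens fell almost throughout. Of the 19 tested, 16 were lower and 0 higher, with a median log2 fold change of -1.09, and 14 or 15 were lower on the other scales. Col1a1 of fibrillar collagen I was at 74.2, 105 and 90.9 TPM in MHS and at 37, 25.2 and 33.7 TPM in MHS_RR, a change of -1.47 ± 0.25 (adjusted p = 0.000612). Col3a1 of collagen III went from 131, 184 and 152 TPM to 61.9, 53.8 and 61.7 TPM (-1.37 ± 0.28, adjusted p = 0.00232). Neither gene overlapped between the groups. Among collagens of basement membranes and microfibrils, Col15a1 had the smallest adjusted p of the list (8.01e-06) and went from 77.4, 103 and 112 TPM to 41, 35.8 and 37.8 TPM (-1.31). Col4a1 changed by -1.24, Col6a2 by -1.04 and Col6a3 by -1.31. Col8a1, a short-chain collagen, fell furthest, from 39.6, 39.9 and 51.7 TPM to 16.4, 10.2 and 10.9 TPM (-1.75 ± 0.24, adjusted p = 8.84e-05).

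Several collagens ended below the level of untreated hearts of the same day. In 10 of the 19 all MHS_RR libraries lay under all day 56 controls, a share of 52.6% beside 15.1% of all tested genes. Col1a1 was at 48.1 ± 3.68 TPM (SD, n = 3) and Col15a1 at 56.9 ± 3.74 TPM in those controls. Col8a1 differed from them in this respect, with 8.85, 14.8 and 9.55 TPM in the controls. These positions are a description and were not tested here.

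Matricellular proteins held many of the deepest falls. Of 16 tested members 10 were lower and 0 higher, with a median of -1.34, and 8 or 9 were lower on the other scales. Cilp, a matrix protein of cartilage and of scarred heart, was at 59.2, 60.02 and 68.3 TPM in MHS and at 22.3, 6.95 and 12.1 TPM in MHS_RR (-2.24 ± 0.41, adjusted p = 0.00106). Postn, periostin of activated fibroblasts, went from 92.7, 102 and 148 TPM to 41.4, 22.7 and 23.6 TPM (-1.95 ± 0.47, adjusted p = 0.00708). In both genes replicate 1, which held atrial transcripts, was the highest MHS_RR library, as it was in Thbs1 and Thbs4 below. Without it Cilp and Postn changed by -2.63 and -2.22 (adjusted p = 0.000652 and 0.00767). The part of atrial tissue in these levels was not tested. Thbs1, thrombospondin 1, was at 19.7, 33.1 and 19.6 TPM and then at 7.08, 2.85 and 3.32 TPM (-2.25 ± 0.38, adjusted p = 0.000477). Its relative Thbs4 changed by -2.22 ± 0.59 (adjusted p = 0.0121), from 31.5, 31.4 and 42 TPM to 14.1, 3.5 and 5.69 TPM, and was not called without MHS replicate 3 or MHS_RR replicate 2 (adjusted p = 0.0535 and 0.0841). Sparc, a collagen-binding glycoprotein, was at 499, 626 and 613 TPM in MHS and 244, 217 and 219.7 TPM in MHS_RR (-1.34 ± 0.14, adjusted p = 8.01e-06). Ctgf, a growth factor target of TGF-beta and stretch, changed by -1.46 (adjusted p = 0.000642). Without MHS_RR replicate 2 only 6 of the 16 were lower.

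Proteoglycans and elastic fibre proteins followed, with 15 of 23 lower, 0 higher and a median of -0.65, and 12 or 13 lower on the other scales. Ltbp2, which binds fibrillin microfibrils, went from 9.12, 23.4 and 14.4 TPM to 5.27, 1.3 and 2.07 TPM (-2.14 ± 0.49, adjusted p = 0.005). The small proteoglycan Bgn, biglycan, was at 403, 569 and 498 TPM in MHS and 273, 190.5 and 202 TPM in MHS_RR (-1.14 ± 0.16, adjusted p = 8.84e-05). Lum, lumican, changed by -0.94 and Fbln2, fibulin 2, by -0.63, each with no overlap. The microfibril protein Mfap5 changed by -1.40 ± 0.20 (adjusted p = 0.000105).

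Enzymes that build and cut the matrix, and their inhibitors, fell in 18 of 23 and rose in 0, with a median of -0.69, and on the other scales 12 to 14 were lower. Serpinh1, the chaperone of collagen in the endoplasmic reticulum, was at 251, 284 and 309 TPM and then at 159, 139 and 173 TPM (-0.84 ± 0.10, adjusted p = 2.18e-05). The cross-linking enzymes Loxl1 and Loxl2 changed by -0.91 and -1.26. The gelatinase Mmp2 also fell, from 72.4, 106 and 80.1 TPM to 40.9, 29.7 and 31.1 TPM (-1.32 ± 0.18, adjusted p = 8.84e-05). Timp1, which inhibits such proteases, went from 13.1, 24.7 and 18.2 TPM to 7.22, 3.71 and 3.77 TPM (-1.74 ± 0.40, adjusted p = 0.00509). Without MHS_RR replicate 2, 11 of the 23 were lower.

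Ligands and receptors of the TGF-beta family were lower in 9 of 18 tested members and higher in 0, with a median of -0.55, and on the other scales 7 or 8 were lower and 1 was higher. Tgfb2 went from 8.21, 13.2 and 14.8 TPM to 6.35, 4.1 and 5.06 TPM (-1.06 ± 0.19, adjusted p = 0.000979), and Tgfb3 from 16.9, 19.96 and 18.5 TPM to 12.1, 8.6 and 10.4 TPM (-0.78 ± 0.14, adjusted p = 0.000837). The changes of Tgfb1 and of the receptor Tgfbr2 were smaller, -0.52 ± 0.10 and -0.58 ± 0.12, and were called (adjusted p = 0.00198 and 0.00182). None of these 4 overlapped between the groups.

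Of 14 tested genes that make or sense angiotensin and endothelin, 5 fell and 1 rose. Ace, the enzyme that makes angiotensin II, was at 49.6, 59.9 and 59.96 TPM in MHS and 33.8, 25.7 and 29 TPM in MHS_RR (-0.92 ± 0.13, adjusted p = 0.000102). Agtr1a, the angiotensin II receptor gene, moved the other way, from 39.8, 32.3 and 31.2 TPM to 55.4, 48.1 and 58.2 TPM (0.63 ± 0.11, adjusted p = 0.000692), and its groups did not overlap. Both calls held under each alternative. The endothelin gene Edn3 fell from 9.24, 13.2 and 10.1 TPM to 2.37, 3.22 and 2.86 TPM (-1.63 ± 0.24, adjusted p = 0.000193). The endothelin receptor Ednrb changed by -0.57 ± 0.13 (adjusted p = 0.00486). On the other scales 3 or 4 of the 14 were lower and 1 was higher, and 3 were lower without MHS replicate 3 or MHS_RR replicate 2.

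The deepest fall of all named genes was in fuel choice. Pdk4, the kinase that inhibits pyruvate dehydrogenase, was at 883, 1031 and 991 TPM in MHS and at 149, 155 and 157 TPM in MHS_RR. The log2 fold change was -2.65 ± 0.53 (adjusted p = 0.00204). The 3 MHS_RR libraries were close to each other and below all controls, but the day 56 controls spread widely, with 860.2, 312 and 299 TPM. Other targets of the PPAR receptors, which answer to fatty acids and fasting, fell with it, 8 of 13 in all with a median of -0.65 and 0 higher. Angptl4, an inhibitor of lipoprotein lipase, went from 25.2, 45.5 and 44.2 TPM to 5.07, 8.97 and 7.14 TPM (-2.27 ± 0.47, adjusted p = 0.00273). The uncoupling protein gene Ucp2 changed by -0.66 ± 0.14 (adjusted p = 0.00335). Beyond control time 2 of the 13 were called lower. The withdrawal count was 6 or 7 of 13 on the other scales, 5 without MHS replicate 2 and 4 without MHS_RR replicate 2.

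The changes of fatty acid oxidation enzymes were small, and the balance of the list depended on the scale. In TPM 9 of 27 fell and 2 rose (median -0.14), and on the other scales 2, 7 and 5 fell and 3, 1 and 3 rose. Decr1, which handles unsaturated fatty acids, and the dehydrogenase Acadl had the smallest p-values. Decr1 went from 461, 469 and 427 TPM to 338, 340.0 and 329.9 TPM (-0.43 ± 0.054, adjusted p = 4.63e-05) and Acadl changed by -0.31 ± 0.044 (adjusted p = 0.000124), both under every alternative. The call of Cpt1b, the carnitine palmitoyltransferase of muscle mitochondria (-0.29 ± 0.052, adjusted p = 0.00082), was lost with median-of-ratios scaling (-0.16, adjusted p = 0.0972), and so was that of the fatty acid carrier Fabp3 (from -0.33 with adjusted p = 0.000932 to -0.20 with adjusted p = 0.127). Without MHS_RR replicate 2, 5 of the 27 fell.

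The respiratory chain held more higher calls than any other list. Of 39 tested nuclear-encoded subunits 21 were higher and 0 lower, against 3.54% of all genes, and in 33 of them every MHS_RR library exceeded every MHS library, which held for 8.32% of all genes. The changes were small, between 0.13 and 0.49 among the called subunits, with a median of 0.18. Cox7a1, the muscle form of a cytochrome oxidase subunit, rose from 3913, 3678 and 3549.9 TPM to 4840.1, 5834 and 5058 TPM (0.49 ± 0.085, adjusted p = 0.000573). Atp5o of the ATP synthase went from 2399.6, 2352 and 2304 TPM to 2723, 3012 and 2800.3 TPM (0.27 ± 0.054, adjusted p = 0.00182), and Ndufs7 of complex I changed by 0.37 ± 0.085 (adjusted p = 0.00508). The other scales called 33, 14 and 25 subunits higher and 0 lower. The TPM count of 21 was 13 without MHS replicate 2, 6 without MHS replicate 3 and 6 without MHS_RR replicate 2. In the same fits the higher calls among all genes went from 442 to 284, 203 and 231.

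Breakdown of branched-chain amino acids rose in the same way, in 8 of 18 genes with 0 lower. On the other scales 11 or 12 were higher, and without MHS replicate 3 there were 4. Bckdhb, a subunit of the dehydrogenase that commits these amino acids to oxidation, was at 51.2, 55.9 and 50.3 TPM in MHS and 73.3, 76.7 and 75 TPM in MHS_RR (0.51 ± 0.067, adjusted p = 6.95e-05). Its partner Bckdha changed by 0.35 ± 0.07 and the isovaleryl-CoA dehydrogenase Ivd by 0.34 ± 0.057 (adjusted p = 0.00205 and 0.00057). Gcdh, which acts on lysine and tryptophan, was among the genes whose rise exceeded control time most clearly. It went from 47.7, 48.9 and 44.8 TPM to 67.8, 67.8 and 68.9 TPM (0.52 ± 0.055, adjusted p = 8.01e-06).

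Rises in the citric acid cycle were less firm. They were called for 5 of 16 genes, for 8, 1 and 7 on the other scales, for 1 without MHS replicate 2 and for 0 without MHS replicate 3 or MHS_RR replicate 2. Idh2 had the smallest p (0.27 ± 0.067, adjusted p = 0.00886) and was not called without the one or the other (adjusted p = 0.0594 and 0.0537). In glycolysis and glycogen 6 of 24 rose and 3 fell. The rises were 8, 4 and 10 on the other scales, and 3 without MHS replicate 1, MHS replicate 3, MHS_RR replicate 2 or MHS_RR replicate 3. The muscle enolase Eno3 rose from 1223, 1162 and 1231 TPM to 1564, 1749 and 1754 TPM (0.48 ± 0.071, adjusted p = 0.000162). Ldhb, the lactate dehydrogenase of oxidative muscle, rose from 2064, 1993 and 1994 TPM to 2713, 2872 and 2701 TPM (0.45 ± 0.048, adjusted p = 8.01e-06). The platelet-type phosphofructokinase Pfkp fell from 49.9, 66.6 and 62.1 TPM to 38.5, 33.9 and 32 TPM (-0.75 ± 0.12, adjusted p = 0.000261), and Pgam1 by -0.42 (adjusted p = 0.00134). All 4 calls held under each alternative.

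**Figure D2:**
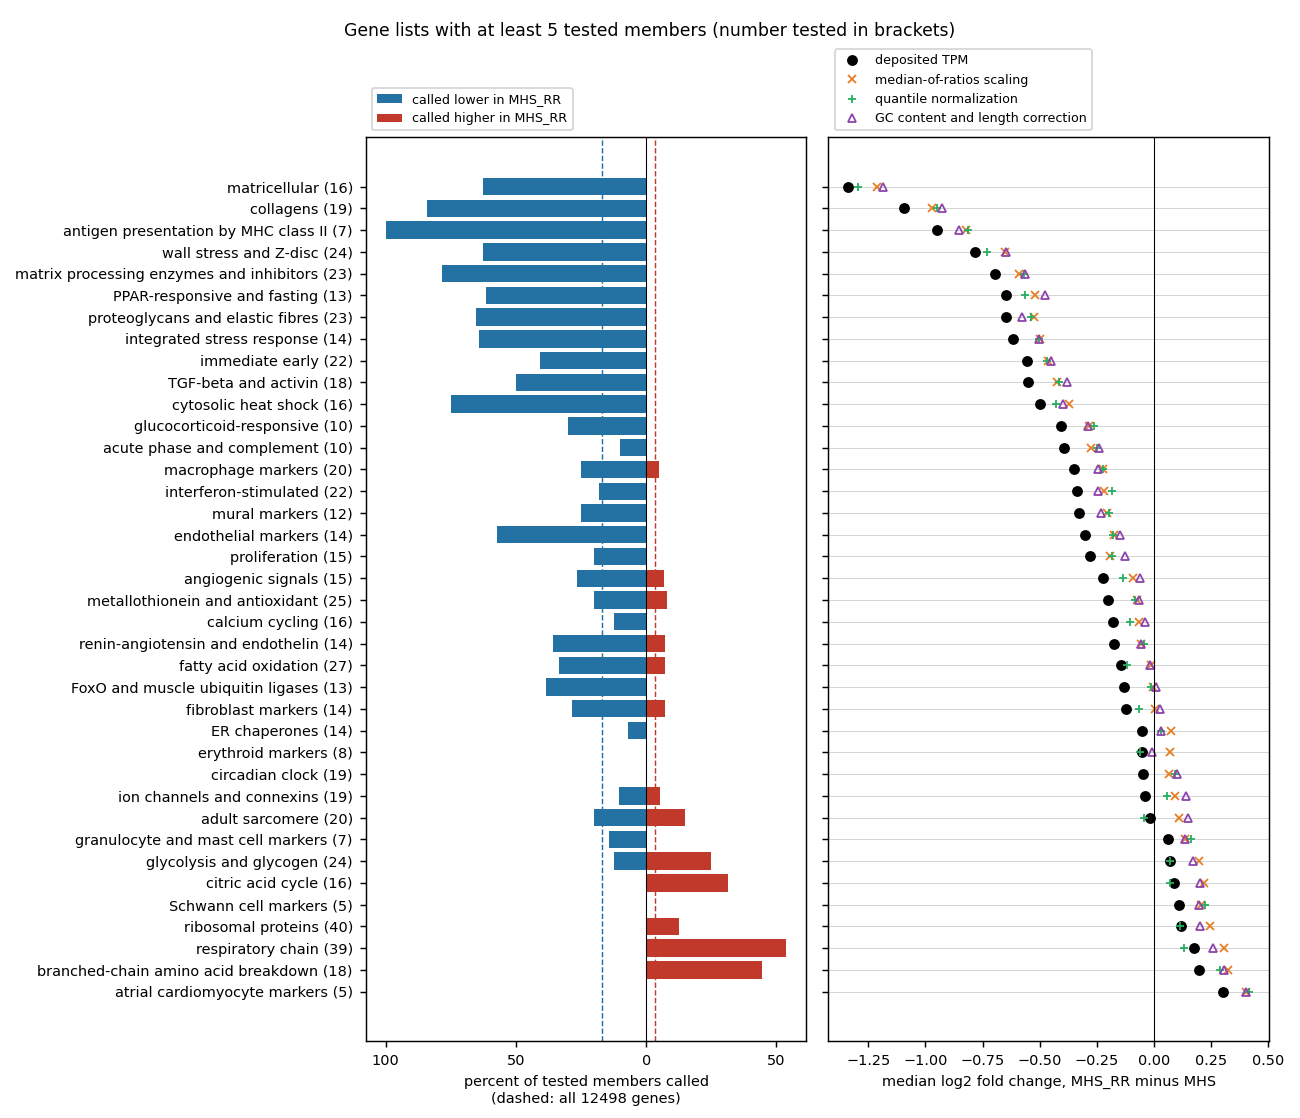
Gene lists with at least 5 tested members, with the number tested in brackets. The left panel gives the percent of members called lower (to the left) or higher (to the right) in MHS_RR, with dashed lines at 16.9% and 3.54% for all 12498 genes, and the right panel gives the median log2 fold change on 4 scales. Collagens, matricellular and MHC class II genes lie at medians of -0.81 or lower on each scale, and the respiratory chain and branched-chain amino acid lists above 0 on each.

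Sarcomere genes split. Of 20 tested, 3 were higher and 4 lower in TPM, beside 3.54% and 16.9% of all genes. The ventricular light chain Myl2, the most abundant of those named, rose from 24559.9, 25624 and 25511 TPM to 33894, 37856 and 34974 TPM (0.49 ± 0.057, adjusted p = 2.18e-05), and cardiac troponin I, Tnni3, from 8176, 7578 and 8036 TPM to 10070.1, 10677 and 10286 TPM (0.38 ± 0.067, adjusted p = 0.000652). After quantile normalization neither was called (0.11 and 0.13, adjusted p = 0.174 and 0.213). The M-band protein Myom1 changed by -0.58 and the Z-disc actinin Actn2 by -0.38 (adjusted p = 0.00124 and 0.000949), under every alternative. Myh6, the fast myosin heavy chain of the adult mouse ventricle, was at 9975, 10961 and 11109 TPM and 10107, 9195 and 11444 TPM and was not called (-0.064 ± 0.10, adjusted p = 0.689).

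Calcium cycling and channel genes showed few calls. Of 16 calcium genes 2 fell and 0 rose, while 1, 1 and 2 fell and 2, 0 and 3 rose on the other scales. The calcium-binding Casq2 of the sarcoplasmic reticulum went from 1077, 1190.3 and 1188 TPM to 830.4, 805 and 879 TPM (-0.46 ± 0.072, adjusted p = 0.000281), while the call of the release channel Ryr2 (-0.50 ± 0.17, adjusted p = 0.042) was lost when any 1 of 5 libraries was left out, with median-of-ratios scaling and with quantile normalization (adjusted p = 0.0836 and 0.1). Of 19 channels and connexins 1 rose and 2 fell in TPM, and on the other scales 4 or 5 rose and 0 fell. The gene that rose on each of them was Gja1, connexin 43 of the gap junctions, from 306, 279.8 and 295 TPM to 418, 362 and 479 TPM (0.51 ± 0.12, adjusted p = 0.00729), with no overlap.

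Stress programmes of the cell fell as well. In the integrated stress response, which slows translation and raises amino acid synthesis through the factor ATF4, 9 of 14 genes were lower and 0 higher (median -0.62), and the count was 9 on each other scale. Mthfd2, a folate enzyme of the mitochondrion, was at 6.84, 16.1 and 9.36 TPM in MHS and at 2.11, 2.29 and 2.25 TPM in MHS_RR (-1.80 ± 0.23, adjusted p = 4.76e-05). The MHS libraries spread wider than the others, and the day 56 controls held 2.47, 2.45 and 1.96 TPM. The factors Atf5 and Atf4 changed by -0.72 and -0.44 (adjusted p = 0.000121 and 0.0021), and the amino acid transporter Slc7a5 by -0.52 (adjusted p = 0.0018). The start region of Asns, asparagine synthetase, is shown because it holds the element that C/EBP and ATF factors bind. The change of Asns itself was -0.79 ± 0.20 (adjusted p = 0.00849). The window lies at chr6:7693160-7693459 on the minus strand, and capitals mark a match to TGATG followed by any base and AA, read on both strands, that begins at -23.
Asns: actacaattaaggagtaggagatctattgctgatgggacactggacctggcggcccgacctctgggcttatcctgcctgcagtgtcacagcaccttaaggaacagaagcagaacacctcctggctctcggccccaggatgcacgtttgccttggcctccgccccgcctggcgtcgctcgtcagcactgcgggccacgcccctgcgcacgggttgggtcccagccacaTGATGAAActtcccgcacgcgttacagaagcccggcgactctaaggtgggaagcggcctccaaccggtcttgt

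A match was present for 4 of the 13 genes of that list with a window, against 4.51% of all genes with one, and this motif was chosen after the data were seen.

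Cytosolic heat shock genes were lower in 12 of 16, with 0 higher, a median of -0.50 and 7 to 9 lower on the other scales. The small heat shock protein Hspb7 went from 3093, 3234 and 3313 TPM to 2133, 2029 and 2125 TPM (-0.62 ± 0.078, adjusted p = 4.68e-05) and Hspb6 changed by -0.74 ± 0.12 (adjusted p = 0.000477). Hspa8, the constitutive HSP70, changed by -0.50 and its partner Dnaja1 by -0.72. Outside the list, Hspa1l was at 18.8, 18.5 and 19.7 TPM and then at 7.32, 6.51 and 5.14 TPM (-1.46 ± 0.15, adjusted p = 8.01e-06). Of 14 chaperones of the endoplasmic reticulum 1 was lower. Hspa5, the chaperone BiP, was at 466, 457 and 466 TPM and 518, 514 and 638 TPM (0.26 ± 0.14, adjusted p = 0.193).

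Immediate early genes were lower in 9 of 22 and higher in 0, but in 3 of 22 without MHS replicate 1 or MHS_RR replicate 2, and in 6, 6 and 4 on the other scales. Egr3 went from 8.46, 2.44 and 4.27 TPM to 0.693, 0.625 and 0.68 TPM (-1.74 ± 0.33, adjusted p = 0.00132) and kept its call in every alternative that tested it. It passed the filter through its MHS libraries alone, which favours a fall. Egr2, Fosl2 and Nr4a3 had changes of -1.02, -0.69 and -1.10 (adjusted p = 0.0109, 0.0104 and 0.0073), and each lost the call without MHS_RR replicate 2. For Nr4a3 the value between the control days was -0.79 ± 0.27 (adjusted p = 0.999) and that beyond control time was -0.31 ± 0.38 (adjusted p = 0.659). The FoxO and muscle ubiquitin ligase list held 5 of 13 lower and 0 higher, but 2, 3 and 3 lower and 2, 1 and 2 higher on the other scales. Foxo4 fell from 44.5, 52.3 and 46 TPM to 29, 22.1 and 29.8 TPM (-0.80 ± 0.12, adjusted p = 0.000205), and Fbxo40, a ligase of muscle, by -0.56 (adjusted p = 0.00106). The weaker change of Foxo1 (-0.33 ± 0.11, adjusted p = 0.0377) was 0.0076 (adjusted p = 0.965) with correction for GC content and length.

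Antigen presentation by MHC class II fell in all 7 tested genes, with a median of -0.95. Cd74, the invariant chain that guards the class II groove, was at 208, 257 and 237 TPM in MHS and at 123, 118 and 118 TPM in MHS_RR (-0.96 ± 0.15, adjusted p = 0.00026). H2-Ab1 went from 69.7, 93.1 and 88.7 TPM to 41.3, 40.8 and 36.7 TPM (-1.05 ± 0.17, adjusted p = 0.000361), and H2-Aa and H2-Eb1 changed by -1.03 ± 0.19 and -0.95 ± 0.20 (adjusted p = 0.00118 and 0.00251). The MHS level of Cd74 overlapped that of the controls. Day 28 controls held 241, 303 and 233 TPM of Cd74 and day 56 controls 251, 196 and 274 TPM, and in 6 of the 7 genes all MHS_RR libraries lay below all day 56 controls, a position that 15.1% of all tested genes had. Beyond control time 1 of the 7 was called lower. On the other scales 5 of the 7 were lower after withdrawal, and 4 were lower without MHS replicate 2 or MHS_RR replicate 3.

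Of 20 macrophage markers 5 were lower and 1 higher, beside 16.9% and 3.54% of all genes. On the other scales 3, 2 and 4 were lower and 2 higher. Mpeg1, a pore protein of phagocytes, went from 8.31, 13.8 and 10.9 TPM to 5.16, 3.56 and 4.13 TPM (-1.17 ± 0.24, adjusted p = 0.00273). The macrophage marker Adgre1 (F4/80) changed by -0.61 ± 0.16 (adjusted p = 0.0103) and Ccr2, the receptor of recruited monocytes, by -0.88 ± 0.25 (adjusted p = 0.0176), and both calls were lost without MHS replicate 2 (adjusted p = 0.0703 and 0.0661). Only 1 macrophage marker was lower without that library. The summed level of the 20 markers was 539 to 567 TPM in MHS and 389 to 502 TPM in MHS_RR, and that of 8 class II genes 449 to 575 TPM and 246 to 271 TPM. Both sums were lower in every MHS_RR library, and the part of macrophages in the class II result was not tested. Interferon-stimulated genes were lower in 4 of 22, near the 16.9% of all genes, and higher in 0. They were lower in 1 of 22 without MHS replicate 2, MHS replicate 3 or MHS_RR replicate 2, but in 7 without MHS replicate 1 and in 9 without MHS_RR replicate 1. Their count was 1, 1 and 3 on the other scales. Of the acute phase and complement list 1 of 10 fell, Serpina3n (-1.18 ± 0.31, adjusted p = 0.0117), which was not called without MHS replicate 2 (adjusted p = 0.0566) or MHS_RR replicate 2 (adjusted p = 0.0637).

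Among markers of vessels, 8 of 14 endothelial genes were lower in TPM, but 1 or 2 on the other scales, 3 without MHS replicate 2 and 2 without MHS_RR replicate 2. Their summed level was 3161 to 3415 TPM in MHS and 2449 to 2795 TPM in MHS_RR. Pecam1 of endothelial junctions fell from 122, 138 and 139 TPM to 102, 88.1 and 99 TPM (-0.46 ± 0.082, adjusted p = 0.00082) under each alternative, whereas the calls of Eng and Robo4 (-0.32 and -0.30) were lost on all 3 other scales. Of 12 mural markers 3 were lower and 0 higher, beside 16.9% and 3.54% of all genes. Only 1 was lower without MHS replicate 2, MHS replicate 3 or MHS_RR replicate 2. On the other scales 2, 1 and 2 were lower and 1 was higher. Cspg4 of pericytes changed by -0.75 ± 0.14 (adjusted p = 0.0011). In the angiogenic list 4 of 15 were lower and 1 higher, with 2 lower on the other scales and without MHS replicate 2, MHS replicate 3 or MHS_RR replicate 2. The apelin receptor Aplnr and the angiogenesis inhibitor Vash1 changed by -0.84 ± 0.17 and -0.94 ± 0.14 (adjusted p = 0.00186 and 0.000224).

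Of 14 fibroblast identity genes 4 fell and 1 rose (2 fell without MHS replicate 2, MHS replicate 3 or MHS_RR replicate 2), with a median of -0.12, close to that of all genes. Their summed level was 2480.2 to 3047 TPM in MHS and 1958 to 2526 TPM in MHS_RR, which overlapped, and its part in the matrix results was not tested. Meox1, a transcription factor of activated fibroblasts, was at 28.5, 32.5 and 39.7 TPM in MHS and 15.5, 12.1 and 10.4 TPM in MHS_RR (-1.34 ± 0.20, adjusted p = 0.000202). Pi16 changed by -0.79 ± 0.14 (adjusted p = 0.000826), and the call of the scavenger receptor Scara5, the gene that rose (0.37 ± 0.12, adjusted p = 0.0268), was lost when 1 library was left out in 4 cases. Wt1, the mesothelial marker tested, changed by -0.67 (adjusted p = 0.00154). Adipocyte (2), lymphocyte (2), skeletal muscle (2), erythroid (8) and Schwann cell (5) markers had 0 calls among the tested members given in brackets, and 1 of 7 granulocyte and mast cell markers was lower.

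Large rises were few. Scgb1c1, a secretoglobin, was at 26.3, 18.4 and 24.1 TPM and then at 73.7, 94.5 and 63.8 TPM (1.71 ± 0.21, adjusted p = 3.7e-05). The groups did not overlap, and day 56 controls held 49.2, 45.9 and 69.96 TPM. In Gchfr the MHS libraries were the low ones, below every control of either day. Gchfr, the feedback regulator of GTP cyclohydrolase, rose from 4.37, 4.78 and 4.28 TPM to 11.6, 13.5 and 10.8 TPM (1.24 ± 0.11, adjusted p = 3.43e-06), and Doc2g, a member of the double C2 family, from 206, 208 and 212 TPM to 363, 442 and 360.3 TPM (0.89 ± 0.08, adjusted p = 3.43e-06). These 2 shared the smallest adjusted p of the comparison. Gnmt, glycine N-methyltransferase, went from 1.73, 1.15 and 1.87 TPM to 6.6, 6.21 and 4.97 TPM (1.43 ± 0.20) and Gcat, which splits a product of threonine into glycine, from 5.83, 4.38 and 5.09 TPM to 9.13, 11.1 and 13.7 TPM (1.01 ± 0.15).

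Lrrc4b, Gnb3, Lingo3 and Snai3 rose by 1.46, 1.34, 0.99 and 1.17 with calls under each alternative that tested them, as did Cyp26b1, which degrades retinoic acid (1.43 ± 0.37, adjusted p = 0.0104). Inmt (1.55 ± 0.45, adjusted p = 0.0193) lost its call in 4 of the 6 fits without 1 library. The largest rise among the named genes, that of Rps27 (2.81 ± 0.83, adjusted p = 0.0212), rested on 2 libraries, with 96.8, 30.8 and 3.57 TPM in MHS_RR against 2.56, 2.35 and 2.49 TPM in MHS. A day 28 control held 33.1 TPM, and Rps27 has near-identical copies among which reads can be split. Without MHS_RR replicate 1 the change was 1.80 (adjusted p = 0.123), and the call was also lost without MHS replicate 2, MHS replicate 3 or MHS_RR replicate 2 (adjusted p = 0.0627, 0.0642 and 0.0936). Of 40 listed ribosomal protein genes, Rps27 not among them, 5 rose, by 0.17 to 0.26, and 0 fell. The count was 9, 7 and 12 on the other scales, and 1 or 2 without any 1 library other than MHS_RR replicate 3.

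Time alone gave no calls in the controls. Between control day 56 and control day 28, 0 of the 12498 genes were called by limma (0%), 360 had an unadjusted p under 0.05, the smallest adjusted p was 0.701, and 2 genes were called when libraries were weighted by their quality. The SD of log2 fold changes over genes was 0.16 there and 0.30 for withdrawal. With 1 control library left out the unadjusted count of control time ran from 241 to 973, and with libraries weighted by quality it was 2432. GC content and length explained 30.6% of the deviation of control day 28 replicate 1 and 32.8% in control day 56 replicate 1. In the 6 treated male libraries they explained 3.81% to 13%. A lack of calls therefore does not show that time had no effect. The difference between the changes, withdrawal minus control time, was called for 952 genes lower (7.62%) and 148 higher (1.18%), or 434 and 249 with median-of-ratios scaling, 426 and 232 with quantile normalization, and 451 and 366 with correction for GC content and length. It fell from 1100 to 439 genes without control day 28 replicate 2. Wall stress genes accounted for 14 of 24 lower, collagens for 13 of 19, heat shock genes for 8 of 16 and the integrated stress response for 6 of 14. Each of these counts was below that of withdrawal itself, which was 15, 16, 12 and 9. The following lists also gave fewer calls. Lower beyond control time were 5 of 16 matricellular genes, 10 of 23 proteoglycans and elastic fibre genes and 10 of 23 matrix enzymes. So were 2 of 13 PPAR targets, 1 of 7 MHC class II genes and 1 of 20 macrophage markers. The matricellular median was -1.30 there and -1.34 for withdrawal. The standard error of the difference is larger, for Acta1 0.56 against 0.40, so a lost call does not show an effect of time. The respiratory chain held 6 of 39 higher. Beyond control time Acta1 changed by -2.00 ± 0.56 and Cilp by -2.88 ± 0.59 (adjusted p = 0.0317 and 0.00655).

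The smallest adjusted p of this difference (0.000552) was shared by several genes. Hspa1l, Flnc, Dnaja4 (a partner of HSP70), Cd34 (a surface marker of endothelium and progenitors) and Trim72 (a membrane repair protein of muscle) changed by -1.62, -1.30, -0.67, -0.77 and -0.69. Doc2g, Gchfr, Ldhb, Gcdh and Myl2 led the other direction with 0.89, 1.19, 0.46, 0.53 and 0.52. For Pdk4 the difference was -2.42 ± 0.75 (adjusted p = 0.0497), where day 56 control replicate 1 stood apart, and for Postn it was -1.97 ± 0.67 (adjusted p = 0.0709), which was not called.

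Females gave the same contrast in other libraries. After withdrawal 1250 genes (10%) were lower and 227 (1.82%) higher. Of the genes lower in males, 978 were lower in females, which is 46.3% of the male and 78.2% of the female list, 161 were higher in both (36.4% and 70.9%), and 0 were called in opposite directions. Over the 12498 genes Pearson's r between the log2 fold changes of the sexes was 0.74, a description across genes, which are not independent, and the medians of all genes were -0.11 in males and -0.09 in females. The female minus male difference was called for 0 genes (0%) by limma, with 328 at an unadjusted p under 0.05 and 0 under every alternative. Female MHS_RR replicate 3 held 4 Y-linked genes at 26.1% of the mean male level, and female MHS replicate 3 held 125 TPM of Myl7. Without the first of these the female count was 790 genes and without the second it was 960.

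**Figure D3:**
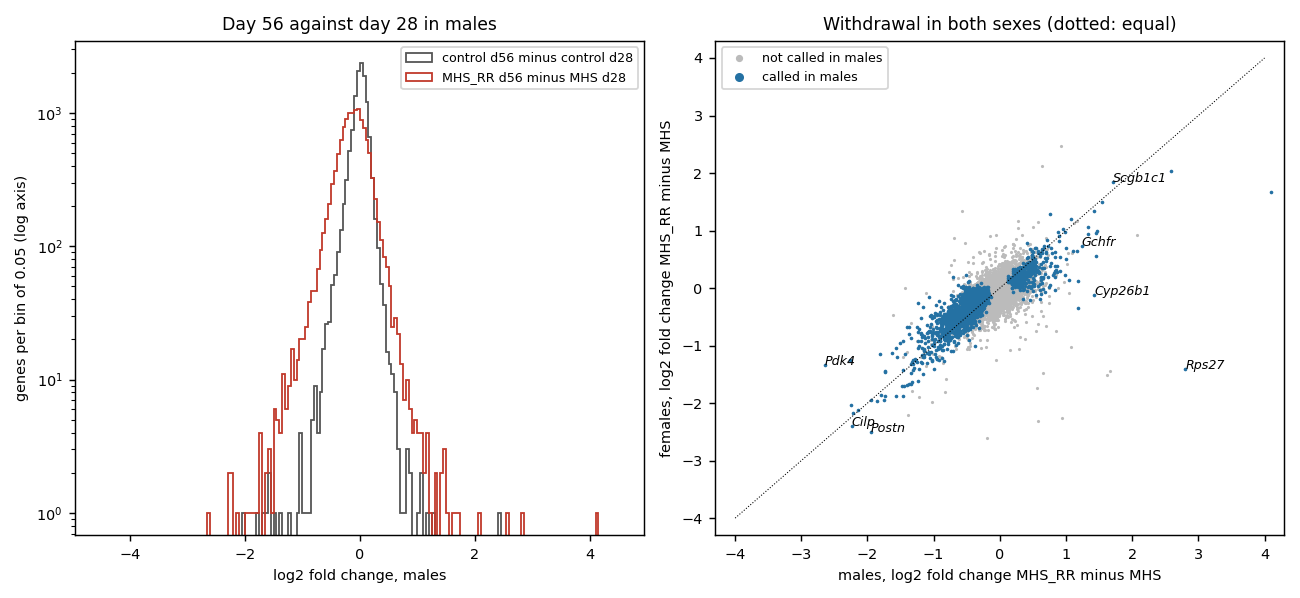
Left, the number of genes per bin of 0.05 in log2 fold change (log axis) for control time and for withdrawal in males. Right, the log2 fold change of withdrawal in females against that in males for all 12498 genes, blue where called in males. The withdrawal changes spread wider than control time (SD 0.30 against 0.16), and no gene was called in opposite directions in the sexes, while Rps27 and Cyp26b1 lie away from the dotted line of equality.

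Matrix genes fell in both sexes. Of the 19 collagens 16 were lower in females, of the 16 matricellular genes 11, and of the 24 wall stress genes 14, beside 10% of all genes. In females Cilp went from 63.9 ± 39.3 to 9.8 ± 2.95 TPM (SD, n = 3; log2 fold change -2.40 ± 0.41, adjusted p by limma = 0.00092) and Col1a1 from 108 ± 66.6 to 25.8 ± 3.3 TPM (-1.87). Heat shock genes were lower in 3 of 16 and PPAR targets in 2 of 13, against 12 and 8 in males. Of all genes 10% were lower in females and 16.9% in males, and no gene of either list was called for the difference between the sexes. Pdk4 in females changed by -1.33 ± 0.53 (adjusted p = 0.108) and its female minus male difference was 1.31 ± 0.75 (adjusted p = 0.999). For Cyp26b1, which was not called in females (-0.13, adjusted p = 0.871), the difference was -1.55 ± 0.52 (adjusted p = 0.999). Nppa, not called in males, was called in females (-1.80 ± 0.49, adjusted p = 0.0216), and the difference of -0.98 ± 0.70 was not (adjusted p = 0.999). Female MHS replicate 3, with 125 TPM of the atrial gene Myl7 against 1.01 and 0.556 TPM in replicates 1 and 2, belongs to the higher group. Its part in the female Nppa call was not tested.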

How the data were processed

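Messenger RNA of the left ventricle was sequenced as stranded Illumina libraries. The authors deposited 1 table of TPM with 24972 gene symbols and 24 columns, all matched to a library and used. Per the labels' processing notes, STAR, Salmon and the mm9 genome were used, without versions. Each column sums to 1e+06, so depth is unknown, no counting error can be given, and the number of libraries limits precision. No 2 columns were identical. The paper at hand describes another experiment and was not used for the design.

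The analysis used log2(TPM + 1), a scale on which the change of a low gene is understated. A mean for each of the 8 groups was fitted to all 24 libraries with limma 3.58.1 in R 4.3.3 (empirical Bayes with an intensity trend, 16 residual degrees of freedom, two-sided). Benjamini-Hochberg adjustment covered the 12498 genes that reached a TPM of 1 in 3 or more of the 6 libraries, with 0.05 as the threshold for a call. Where a gene passed through 1 group alone, the filter favoured a higher level in that group. The 5 comparisons were withdrawal in males, control time in males, the difference between these, withdrawal in females, and the female minus male difference. Errors of fold changes are standard errors and errors of TPM are standard deviations (n = 3). The fit was tested on simulated data.

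The genes, the 42 gene lists (734 genes), the rule for naming genes and the tests were chosen with earlier results of these data known. The rule named, among called genes whose TPM ranges did not overlap and with a mean of at least 5 TPM in the higher group, the 12 highest and 12 lowest changes, up to 5 called genes per direction, by lowest adjusted p, for each difference of effects, 4 members of each list with the lowest p, and 24 fixed genes. Predicted genes without a functional name (59 called) were counted and not named, and some genes that the rule names are not reported here. Genes with a TPM of 0 in every library numbered 5995.

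GC content and transcript length came from GENCODE M21 by symbol, for 12422 of the 12498 genes (99.4%), and corrections used splines with 5 degrees of freedom per term. Promoter windows came from RefSeq on GRCm38.p6. Alternatives were other pseudocounts, filters, scalings, variance models, library weights, the 6 or 12 libraries of a contrast alone, the replicate number as a block, and leaving out each library.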

Additional observations from a re-analysis of the deposited data

How the results depend on the processing

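Withdrawal in males gave 2555 called genes. The count was 1549 when the fit held the 6 libraries of the contrast alone, 3516 with array weights and between 1101 and 2554 when 1 library was left out, with 1450 without MHS replicate 2, 1286 without MHS replicate 3 and 1101 without MHS_RR replicate 2. Control time gave 0 in all settings but array weights (2 genes). Withdrawal beyond control time gave 1100 genes, 462 with the 12 libraries alone, 3051 with array weights, 683 with median-of-ratios scaling, 658 with quantile normalization and 439 to 1310 when 1 library was left out, the lowest without control day 28 replicate 2. Without MHS replicate 2, MHS replicate 3, MHS_RR replicate 2 or control day 56 replicate 1 it was 523, 479, 451 and 703. Withdrawal in females gave 1477 genes, 2395 with array weights and 683 to 1572 when 1 library was left out, with 707 without MHS replicate 2, 683 without MHS_RR replicate 2, 960 without MHS replicate 3 and 790 without MHS_RR replicate 3. The share of higher among called genes moved from 17.3% to 48.3%, 47.6% and 51.9% in males, from 13.5% to 36.5%, 35.3% and 44.8% beyond control time, and from 15.4% to 40.4%, 47.8% and 53.9% in females with median-of-ratios scaling, quantile normalization and correction for GC content and length. Of the 195 named genes 150 were called, 104 kept the call under every alternative that tested them, and 38 lost it when 1 library was left out. The filter at a TPM of 5 tested 170 of the 195. The direction of Foxo1 turned to 0.0076 with correction for GC content and length and with that correction and the block. The female minus male difference gave 0 genes in every setting. The cause of these changes was not tested.

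Whether the replicate numbers of the labels pair the libraries is not known. Deviations of same-numbered MHS and MHS_RR libraries correlated at -0.012, 0.18 and 0.12, and those of differently numbered ones at -0.20 to 0.13. With 3 libraries in each group these values cannot decide it. With the replicate number as a block 2895 genes were called (553 higher and 2342 lower), and not every library correlated best with its own number. Depth is unknown, so no limit by depth can be given for low genes.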

Other observations

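Clock genes were not called in either direction in males (0 of 19, and 1 higher on each other scale), while 1 library of the day 56 controls stood apart. Dbp, an output gene of the clock, was at 139.9, 167 and 156 TPM in MHS and 198, 176 and 146 TPM in MHS_RR, but at 176, 25.7 and 137 TPM in the day 56 controls. Arntl (BMAL1), which drives the clock, was at 8.72, 6.23 and 5.87 TPM in MHS, 11.1, 7.97 and 14 TPM in MHS_RR and 7.78, 25 and 10.6 TPM in those controls, so that control replicate 2 was lowest in Dbp and highest in Arntl. Per2 was at 5.75, 0.843 and 4.48 TPM in the same controls. The time of day at which tissue was taken is not given in the sources used here.

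Of 10 glucocorticoid-responsive genes 3 fell, beside 16.9% of all genes. Tsc22d3 (GILZ) changed by -0.59 ± 0.13 (SE) and Cdkn1a (p21) by -1.11 ± 0.25 (adjusted p by limma = 0.00367 and 0.00486), while the call of Fkbp5 (-0.37 ± 0.11, adjusted p = 0.0269) was lost on the 3 other scales and in 3 of the 6 fits without 1 library. Metallothionein and antioxidant genes held 5 of 25 lower, beside 16.9% of all genes, and 2 higher. On the other scales 2, 2 and 3 were lower and 4, 2 and 2 higher. Catalase, Cat, went from 376, 360.3 and 346 TPM to 290.0, 266 and 275 TPM (-0.38 ± 0.076, adjusted p = 0.00206) and the mitochondrial peroxiredoxin Prdx5 rose by 0.23 (adjusted p = 0.00676). Mt2 was not called (-0.67 ± 0.34, adjusted p = 0.168), and day 56 control replicate 1, with 179 TPM against 43.3 and 45 TPM in the other 2, was also the highest of its group in Pdk4. Of 30 listed proliferation genes 15 passed the filter, and 3 of these fell, near the 16.9% of all genes. The rest, Mki67 and Cdk1 among them, were too low to be tested, so the count covers only part of the list. Among those that fell was Mcm6 of the replication helicase (-0.61 ± 0.10, adjusted p = 0.000416). Top2a also fell, from 1.01, 1.15 and 2.38 TPM in MHS to 0.297, 0.375 and 0.365 TPM in MHS_RR (-0.86 ± 0.24, adjusted p = 0.0152). It passed the filter through its MHS libraries alone, which favours a fall. Ces1d, a carboxylesterase, was at 75.7, 88.4 and 99.9 TPM after withdrawal against 88.7, 74.5 and 68.8 TPM in MHS (0.18 ± 0.11, adjusted p = 0.233), with 119.9, 143 and 147 TPM in the day 56 controls.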
